A study of Homo sapiens with 4 samples.

Results

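The genes of 10 chemokines were examined in the established human ovarian cancer line SKOV3, grown either on a tissue culture plate (TCP) or as tumor spheroids on a plate coated with the thin film polymer X. The 10 genes were CXCL1, CXCL2, CXCL3, CXCL5, CXCL8, CXCL16, CCL2, CCL5, CCL20 and CX3CL1. They were chosen by symbol from the 19475 gene symbols of the FPKM table. Each gene was represented by the RefSeq transcript with the highest mean over all libraries. There were 2 libraries of cells on TCP, labelled day 0, and 2 libraries of polymer X spheroids, labelled day 8. No genotype or drug differed between the groups, but substrate and culture time changed together, and their effects cannot be told apart. The labels give medium with serum replacement for all libraries, whereas the methods of the study give fetal bovine serum for routine culture, so it is not settled which medium the cells on TCP received. The labels do not say whether the 2 libraries of a group came from separate cultures, and the p-values measure the spread between these libraries.

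Chemokines are small secreted proteins that guide migrating cells along a gradient by binding receptors coupled to G proteins. CXCL1, CXCL2, CXCL3, CXCL5 and CXCL8 (interleukin-8) attract neutrophils through CXCR2, and CXCL8 also binds CXCR1. Their genes lie in a cluster on chromosome 4, and they are well-known targets of NF-kappaB and AP-1 in inflamed epithelium and in tumor cells. CCL20 binds CCR6 on lymphocytes and dendritic cells, CCL2 binds CCR2 on monocytes, and CCL5 binds CCR1, among others. CXCL16 and CX3CL1 (fractalkine) are made as membrane proteins that can be shed by the proteases ADAM10 and ADAM17, and they bind CXCR6 and CX3CR1.

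The promoters of CXCL1, CXCL2, CXCL3, CXCL5 and CXCL8 carried a common stretch of sequence. It is shown because these genes are set against each other throughout. RefSeq promoters (build GRCh38.p14, 250 bases before to 50 bases after the gene start) were found for 6 of the 10 genes. These were CXCL1, CXCL2, CXCL3, CXCL5, CXCL8 and CCL20, and none was found for CXCL16. The windows of 30 bases below are given 5′ to 3′ on the strand of the gene, with the kappaB core GGAATTTCC in capitals.
CXCL1 (chr4:73869305-73869334, plus strand): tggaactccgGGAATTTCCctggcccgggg
CXCL2 (chr4:74099253-74099282, minus strand): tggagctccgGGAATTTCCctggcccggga
CXCL3 (chr4:74038748-74038777, minus strand): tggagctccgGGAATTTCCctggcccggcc
CXCL5 (chr4:73998748-73998777, minus strand): atgagttcagGGAATTTCCccagcatccca
CXCL8 (chr4:73740468-73740497, plus strand): tgcaaatcgtGGAATTTCCtctgacataat

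The core began between 91 and 77 bases before the gene start in the 5 genes (at -78, -77, -78, -90 and -91 in the order above). On either strand, it was found in 162 of 35116 promoters, or 0.46%. Because the core is the stretch that these 5 windows share, this share is no test of the genes. CXCL1, CXCL2 and CXCL3 are close paralogs with nearly the same window, so their matches are not independent. CCL20 did not hold these letters, but it held a match to the kappaB consensus, on the opposite strand of the gene, in the window shown here with the match in capitals (chr2:227813753-227813782).
CCL20: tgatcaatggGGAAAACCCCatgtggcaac

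The kappaB consensus overlapped the core in CXCL1, CXCL2, CXCL3 and CXCL5, was not matched in CXCL8, and was found in 5.91% of all promoters. The AP-1 letters TGANTCA, found in 7.71% of promoters on either strand, matched in CXCL8 only, from -137 to -131. The window is chr4:73740422-73740451, with the match in capitals.
CXCL8: ggaagtgtgaTGACTCAggtttgccctgag

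The STAT letters TTCNNNGAA (7.66% of promoters) matched in CXCL5 only, where they overlapped the kappaB match, and a motif of interferon-stimulated response elements (3.57% of promoters) matched in none of the 6. Such matches describe the letters of the window and do not show that a factor was bound there.

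CXCL1, CXCL2 and CXCL3 are close paralogs, and the extent of shared sequence bears on how far their values can be told apart. The coding sequences of the 3 genes (GENCODE transcripts of GRCh38 matched by RefSeq identifier, 321 bases each without the stop codon) were identical at 287 positions and differed at 34. In pairs, identity was 94.4% for CXCL2 and CXCL3, 93.5% for CXCL1 and CXCL2, and 90.7% for CXCL1 and CXCL3. The 60 coding bases that differed least, bases 16 to 75, are shown first, with the 2 positions that differ in capitals.
CXCL1: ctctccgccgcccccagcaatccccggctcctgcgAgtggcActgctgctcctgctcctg
CXCL2: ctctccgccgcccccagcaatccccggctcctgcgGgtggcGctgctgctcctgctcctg
CXCL3: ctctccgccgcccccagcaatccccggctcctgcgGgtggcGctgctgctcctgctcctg

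The 60 coding bases that differed most, bases 257 to 316, held 14 such positions.
CXCL1: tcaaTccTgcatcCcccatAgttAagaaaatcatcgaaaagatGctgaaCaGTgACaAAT
CXCL2: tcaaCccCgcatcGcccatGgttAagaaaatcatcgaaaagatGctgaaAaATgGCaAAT
CXCL3: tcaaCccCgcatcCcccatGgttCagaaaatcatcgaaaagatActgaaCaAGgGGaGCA

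Over whole transcripts, untranslated parts included, fewer stretches were shared. Of the 1048 windows of 50 bases in CXCL1, 60 (5.73%) were found in another gene, and all of these lay in CXCL2 or CXCL3. The share was 9.24% for CXCL2 (108 of 1169 windows) and 5.26% for CXCL3 (54 of 1026). No window of 100 bases in these 3 genes was found in another gene. The read length and the treatment of reads with several matches are not given in the sources used here. How far shared tags enter the values of these 3 genes is therefore not known. It would depend on the level of the other gene as well as on the share of windows. Of the CXCL3 windows, 54 were found in CXCL2 and 6 in CXCL1. Mean FPKM on TCP was 150 for CXCL2, 615 for CXCL1 and 13.8 for CXCL3. CXCL8, CCL20 and CCL2 shared no window of 50 bases with another gene.

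The library totals to which the authors scaled, read from the smallest steps between values, were 38403000 and 44912000 tags on TCP and 40032000 and 40680000 on polymer X. On log2(FPKM + 1), the correlation between replicates over 11964 genes was 0.998 on TCP and 0.997 on polymer X. Of 9 markers of ovarian carcinoma epithelium, 6 reached an FPKM of 1 in at least 1 library, ERBB2, KRT8, KRT18 and PAX8 being the highest, while KRT19, WT1 and MUC16 stayed below it throughout. None of 8 leukocyte markers and none of 3 endothelial markers reached that level. The summed FPKM of the leukocyte markers was 0.224 and 0.137 on TCP and 1.13 and 1.15 on polymer X, with CD2 and CD3E at 0 in all libraries, and that of the endothelial markers was 0.009 and 0.019 against 0.617 and 0.489. The sum for 4 fibroblast markers was 0.373 and 0.351 on TCP and 7.67 and 6.51 on polymer X, most of it from DCN. Their part in the results was not tested. In bulk libraries of this kind, fewer cells making a transcript and less transcript per cell cannot be told apart.

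SKOV3 cells on TCP carried high levels of the neutrophil-attracting chemokines CXCL1, CXCL8 and CXCL2, and these were 4- to 6-fold lower in polymer X spheroids. CXCL3 and CCL20, expressed at lower levels, were also lower on polymer X. CXCL16, the membrane-bound ligand of CXCR6, was 2.77-fold higher and the 1 gene called higher among the 6 tested. CXCL5, CCL2, CCL5 and CX3CL1 had at most 20 sequenced tags in any library. The comparison asks which of these signals differed between spheroids on polymer X and cells on TCP. The test, limma on log2(FPKM + 1), covered the 11964 genes that reached an FPKM of 1 in 2 or more libraries. A call required an adjusted p below 0.05 together with a log2 fold change of 1 or more in size. Of the 10 chemokine genes, 6 entered the test, each with an FPKM above 1 in all 4 libraries, and 5 were called lower and 1 higher. Among all genes tested, 9.45% were called lower, 10.7% higher and 20.2% either way. The 6 genes had a median log2 fold change of -1.90, against -0.06 over all genes tested.

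**Figure D1:**
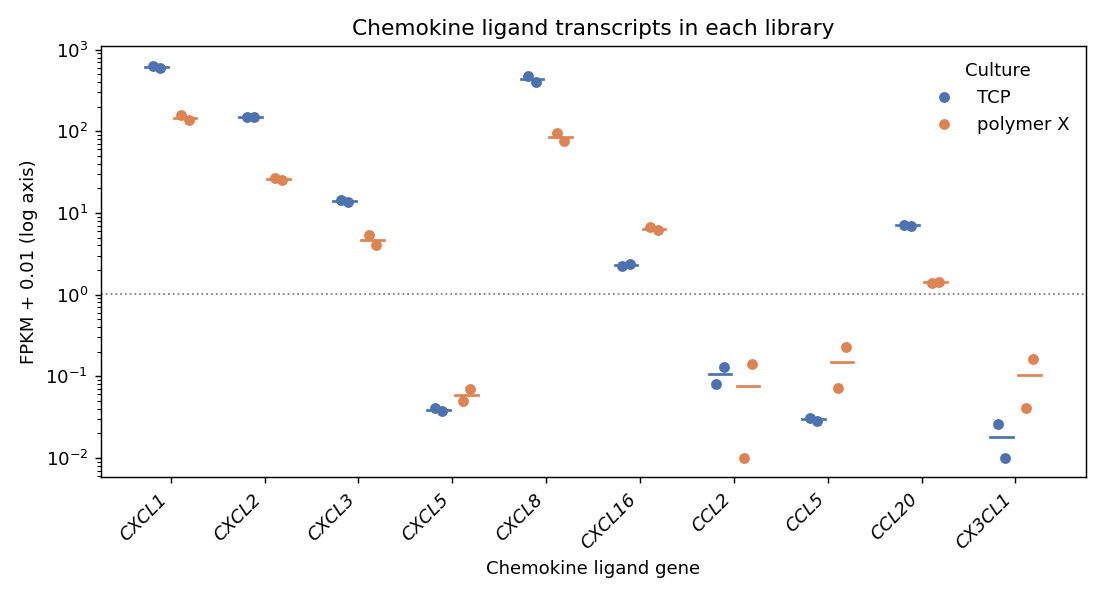
FPKM of the 10 chemokine ligand genes in each library, as points on a log axis after adding 0.01, with the group mean as a line and an FPKM of 1 as a dotted line. CXCL1, CXCL2, CXCL3, CXCL8 and CCL20 lie lower in both polymer X libraries than in both TCP libraries, CXCL16 lies higher, and the remaining 4 genes lie below an FPKM of 1 in all libraries.

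CXCL1 (NM_001511, hg19 chromosome 4, 74735109 to 74737019, plus strand) was the most abundant of the 10 genes in both conditions. Its FPKM was 638 and 592 in the TCP libraries and 158 and 136 in the polymer X libraries. The means were 615 ± 32.6 (SD, n = 2) and 147 ± 15.8 (SD, n = 2), a 4.19-fold lower level on polymer X. In limma, the log2 fold change of CXCL1 was -2.06 with a standard error of 0.08 (adjusted p = 2.77e-08), and the lowest TCP library lay well above the highest polymer X library. On TCP, 99.8% of all gene symbols had a lower mean FPKM than CXCL1, and on polymer X this was still 98.9%.

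CXCL8 (NM_000584, chromosome 4, 74606223 to 74609433, plus strand) had an FPKM of 475 and 398 on TCP and of 94.2 and 75.1 on polymer X. Both polymer X libraries were therefore far below both TCP libraries, although its standard error was the largest of the 6 genes tested. The means were 436 ± 54.5 and 84.7 ± 13.5 (SD, n = 2 each), a 5.15-fold difference. In limma this was -2.35 ± 0.11 (standard error) on the log2 scale, with an adjusted p of 8.41e-08. Its shorter transcript NM_001354840, which shares tags with the longer, had an FPKM of 424 and 357 on TCP and 78.3 and 65.2 on polymer X.

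CXCL2 (NM_002089, chromosome 4, 74962754 to 74964997, minus strand) showed the largest log2 fold change, on the log2(FPKM + 1) scale, of the 6 genes tested. It was at 152 and 148 FPKM on TCP and at 26.6 and 25.3 on polymer X, so that the replicates of each group were close and the groups far apart. The means of 150 ± 2.92 and 25.9 ± 0.912 (SD, n = 2 each) gave a 5.77-fold difference, and limma put the log2 fold change at -2.48 ± 0.06 (standard error) with an adjusted p of 1.46e-09. Only 45 of the 11964 genes tested (0.376%) had a more negative value.

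CXCL3 (NM_002090, chromosome 4, 74902312 to 74904490, minus strand), the least abundant of the 3 close paralogs, was at 14.2 and 13.4 FPKM on TCP and at 5.36 and 4.01 on polymer X. It was 2.95-fold lower in the spheroids, with a log2 fold change in limma of -1.39 ± 0.10 (standard error) and an adjusted p of 1.59e-06. The 95% confidence interval of this value, -1.63 to -1.16, did not overlap those of CXCL2 (-2.61 to -2.36) or CXCL1 (-2.25 to -1.87). The difference between the genes was not itself tested, and the 1 added to each value shrinks the fold of CXCL3 more. With 0.1 added instead, CXCL3 was at -1.56 (-1.84 to -1.27) and CXCL1 at -2.07 (-2.26 to -1.88). Under quantile normalization the interval of CXCL3 (-1.62 to -1.15) overlapped that of CXCL1, whose log2 fold change was then -1.67 ± 0.08 (standard error). The FPKM of CXCL1 exceeded that of CXCL3 44.9- and 44.2-fold on TCP and 29.5- and 33.9-fold on polymer X, and the part that tags shared with CXCL1 or CXCL2 have in the CXCL3 values was not tested.

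CCL20 (NM_001130046, chromosome 2, 228678558 to 228682280, plus strand), the ligand of CCR6 and the 1 CC chemokine of the 10 with an FPKM above 1, was at 7.10 and 6.95 FPKM on TCP. On polymer X it was at 1.38 and 1.42, from 46 and 48 tags against 227 and 260. The means were 7.02 ± 0.104 and 1.40 ± 0.0255 (SD, n = 2 each), a 5.02-fold difference close in size to that of CXCL8. In limma, CCL20 was at -1.74 ± 0.07 (standard error) on the log2 scale with an adjusted p of 3.32e-08, which understates the fold at this level because 1 is added to each value. With 0.1 added instead, it was -2.25.

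CXCL16 (NM_022059, chromosome 17, 4636824 to 4643223, minus strand) changed in the opposite direction. Its FPKM was 2.26 and 2.36 on TCP and 6.69 and 6.11 on polymer X, so both spheroid libraries exceeded both TCP libraries. The means were 2.31 ± 0.0742 and 6.40 ± 0.406 (SD, n = 2 each), with a log2 fold change in limma of 1.16 (95% confidence interval 0.99 to 1.33, adjusted p = 6.12e-07). Among the genes tested, 1004 (8.39%) had a larger value. Its second transcript, NM_001100812, was at 1.89 and 1.96 FPKM on TCP and at 6.68 and 5.97 on polymer X. The span of CXCL16 shares 82 bases with MED11 on the opposite strand, where tags cannot be assigned because strand was not used in counting. The MED11 transcript with the higher values, NM_001001683, was at 7.17 and 6.86 FPKM on TCP and at 8.86 and 8.03 on polymer X. Of the 2173 windows of 50 bases in CXCL16, 66 (3.04%) were found in other genes (21 of them), and 36 were shared with MED11.

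**Figure D2:**
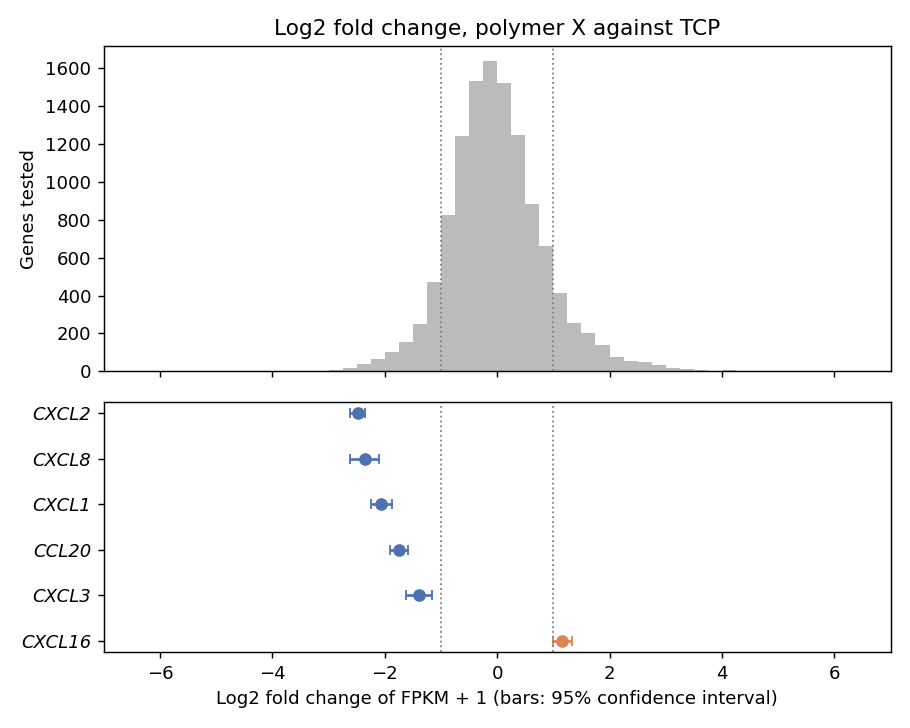
Upper panel, number of genes tested by log2 fold change of FPKM + 1, polymer X against TCP; lower panel, the 6 chemokine genes tested with their 95% confidence intervals from limma, and dotted lines at -1 and 1. CXCL2, CXCL8, CXCL1, CCL20 and CXCL3 lie between -2.48 and -1.39, and CXCL16 lies at 1.16.

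The remaining 4 genes were detected at the limit of the depth and were not tested in the main comparison. CX3CL1 (NM_001304392, chromosome 16, 57406370 to 57418960) had 2 and 0 tags on TCP and 4 and 20 tags on polymer X. The summed tags scaled to library size differed 12.4-fold (exact 95% interval 3.08 to 108, counting error only), but most of the polymer X tags came from replicate 2. CCL5 (NM_002985, chromosome 17, 34198496 to 34207377) had 1 tag in each TCP library and 3 and 11 on polymer X, a ratio of 7.23 (1.66 to 65.5), again mostly from replicate 2. In the CCL5 transcript used for the sequence comparison, 17.5% of windows of 50 bases occurred in other genes (554 of them), so such low counts are uncertain.

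CXCL5 (NM_002994, chromosome 4, 74861359 to 74864446) had 3 tags in each TCP library and 4 and 6 on polymer X, and CCL2 (NM_002982, chromosome 17, 32582296 to 32584220) had 2 and 4 tags on TCP and 0 and 4 on polymer X. The ratios of polymer X to TCP were 1.72 (0.566 to 5.76) and 0.688 (0.143 to 2.90), and a difference was not detectable at this depth in either gene. CXCL5 was thus near the floor in both conditions. Its promoter holds the same kappaB core as CXCL1, CXCL2, CXCL3 and CXCL8, and binding at these sites was not measured. When all genes were tested without a filter, none of the 4 was called (adjusted p from limma 0.104 for CCL5, 0.147 for CX3CL1, 0.347 for CXCL5 and 0.631 for CCL2). Even tag numbers made up 50.1% and 51.7% of low values on TCP and 55.8% and 57.3% on polymer X, and the counting intervals are too narrow where both mates of a pair were counted as tags. The intervals take no account of the spread between libraries or of tags that are copies of the same molecule.

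Summed over the 10 genes, FPKM was 1289 and 1161 in the TCP libraries and 293 and 248 in the polymer X libraries, or 1225 ± 90.6 and 270.5 ± 31.3 (SD, n = 2 each). Spheroids thus held a 4.53-fold lower sum. With 2 libraries in each group, exact permutation reaches no two-sided p smaller than 0.333, and this sum was left untested. CXCL1 made up 49.5% and 51.0% of this sum on TCP and 54.1% and 54.7% on polymer X. CXCL8 made up 36.8% and 34.3% on TCP and 32.2% and 30.3% on polymer X, and CXCL2 11.8% and 12.7% against 9.09% and 10.2%. CXCL1, CXCL8 and CXCL2 thus had the largest shares, in this order, in every library. The ratio of CXCL1 to CXCL8 was 1.34 and 1.49 on TCP and 1.68 and 1.81 on polymer X, and that of CXCL1 to CXCL2 was 4.21 and 4.01 against 5.95 and 5.37. CXCL16 went from 0.175% and 0.203% of the sum to 2.29% and 2.46%.

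**Figure D3:**
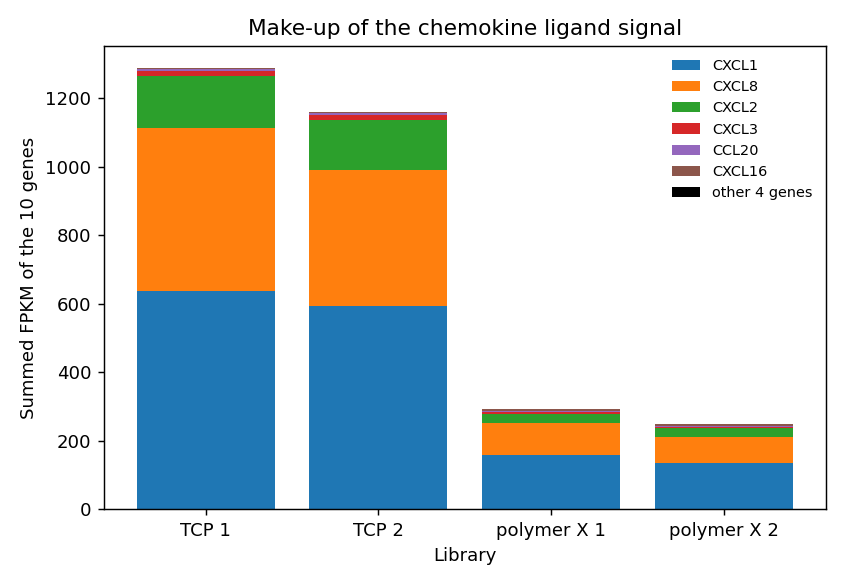
Summed FPKM of the 10 chemokine ligand genes in each library as stacked bars from 0, by gene. CXCL1 and CXCL8 make up most of each bar, and the sum is 1289 and 1161 on TCP against 293 and 248 on polymer X.

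Ranked by mean FPKM, which is scaled to transcript length, the order on TCP was CXCL1, CXCL8, CXCL2, CXCL3, CCL20 and CXCL16, and the 2 libraries of neighbouring genes in this order did not overlap. On polymer X the first 3 places were the same, but CXCL16 stood ahead of CXCL3 and CCL20, again without overlap between neighbours. Below an FPKM of 1, the neighbours CCL5, CX3CL1, CCL2 and CXCL5 overlapped in the polymer X libraries. All 6 genes tested had groups that did not overlap, with 5 lower and 1 higher on polymer X. Over all genes tested the groups did not overlap in 90.4%, 48.4% lower and 41.9% higher.

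The position of the CXC genes in their cluster is shown because the genes with high and with negligible levels lie side by side. From CXCL8, the cluster on chromosome 4 runs through CXCL6, PF4V1, CXCL1, PF4, PPBP, CXCL5 and CXCL3 to CXCL2, whose lowest coordinate is 357 kb further on. PF4V1, a variant of platelet factor 4 that lies between CXCL6 and CXCL1, was at 12.8 and 11.2 FPKM on TCP and at 3.72 and 3.59 on polymer X. In limma, PF4V1 was lower by a log2 fold change of -1.48 (adjusted p = 1.46e-07). The PF4V1 transcript used for the sequence comparison had 522 bases, against 739 for the transcript with the FPKM values. It shared 76 of its 473 windows of 50 bases with PF4, for which no library held more than 4 tags. PPBP was listed at 0 in all 4 libraries. CXCL6, a further ligand of CXCR1 and CXCR2, had 2 and 6 tags on TCP and 20 and 10 on polymer X and was not tested. At this low level, both polymer X libraries of CXCL6 had more tags than both TCP libraries.

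**Figure D4:**
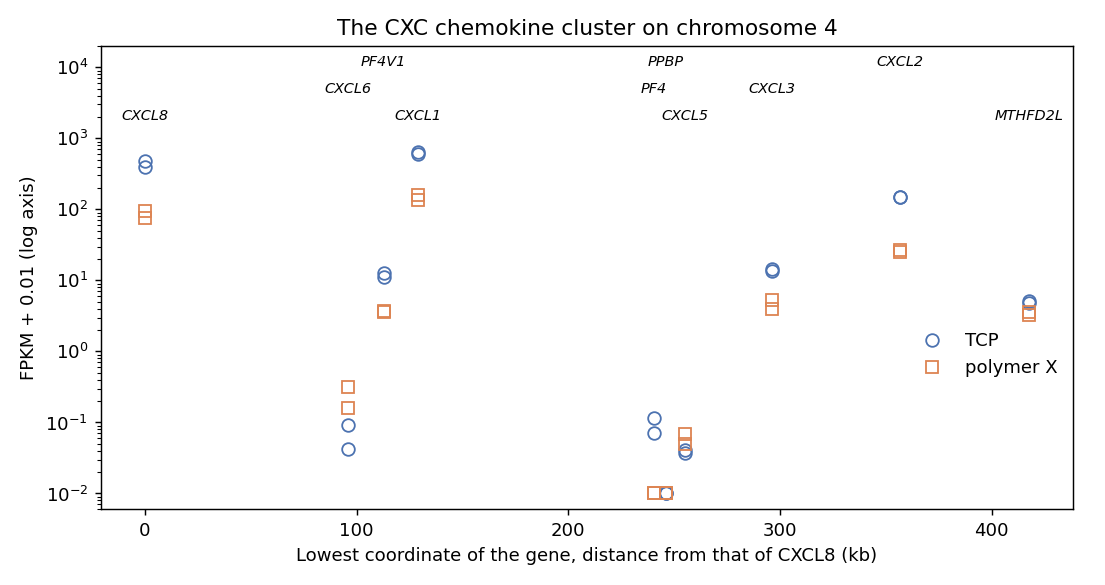
FPKM plus 0.01 (log axis) of the genes of the chemokine cluster on chromosome 4 and of the adjacent gene MTHFD2L, by distance of the lowest coordinate from that of CXCL8, with 1 point per library. CXCL8, PF4V1, CXCL1, CXCL3 and CXCL2 are lower on polymer X, whereas CXCL6, PF4, PPBP and CXCL5 lie below an FPKM of 1 in all libraries.

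Of the other 36 chemokine ligands listed, 3 were tested. PF4V1 was called lower, as were 9.45% of all genes tested, and CCL26 (log2 fold change -0.59) and CCL28 (0.70) were not called. CCL26, a ligand of CCR3, was at 4.40 and 3.04 FPKM on TCP and at 1.80 and 2.43 on polymer X, and CCL28, a mucosal chemokine, was at 1.09 in both TCP libraries and at 2.38 and 2.43 on polymer X. The interferon-inducible ligands of CXCR3, CXCL10 and CXCL11, were named after their values were seen. CXCL10 had 0 tags in both TCP libraries and 11 in each polymer X library. CXCL11 had 0 on TCP and 14 and 15 on polymer X. CXCL9, the third ligand of CXCR3, was at 0 in all libraries.

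Most of the receptors of these ligands reported here were at or near 0 in these cells. CXCR1, CCR2 and CX3CR1 had 0 tags in all 4 libraries, and CXCR2 had 4 tags in TCP replicate 2 and 0 elsewhere. CXCR6, the receptor of CXCL16, had 2 and 15 tags on TCP and 4 and 2 on polymer X, and CCR6, the receptor of CCL20, had 4 and 10 against 2 and 6. CCR1 was at 0 on TCP, with 45 and 72 tags on polymer X (FPKM 0.421 and 0.662). Of 23 receptors listed, 2 were tested and both were called higher, as were 10.7% of all genes tested. CXCR4, the receptor of CXCL12, was at 0.218 and 0.240 FPKM on TCP and at 60.8 and 65.5 on polymer X. ACKR3, a scavenging receptor of the same ligand, was at 0.273 and 0.361 against 11.1 and 12.5, a log2 fold change of 3.28. Both passed the filter on low values only through their polymer X libraries.

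The list of genes that process or bind chemokines had 17 members, of which 14 were tested, 6 were called higher and 0 lower. At the same criteria, 10.7% of all genes tested were called higher and 9.45% lower. With no minimum fold change, 5 of the 14 had a negative and 9 a positive log2 fold change at an adjusted p under 0.05 from limma, as did 5212 and 4477 of all 11964 genes tested. The sheddase ADAM10 was at 41.5 and 42.1 FPKM on TCP and at 36.0 and 35.7 on polymer X (log2 fold change -0.22), and ADAM17 was at 12.6 and 14.1 against 18.6 and 18.8 (0.46). Neither was called. The 6 genes called higher were the matrix metalloproteinases MMP1, MMP7 and MMP2, the cathepsins CTSS and CTSK, and DPP4, an exopeptidase that trims the amino end of chemokines. DPP4 was at 0.229 and 0.115 FPKM on TCP and at 2.15 and 2.35 on polymer X, which gave a log2 fold change of 1.47. Under quantile normalization it was just below 1 and no longer called. CTSS and CTSK had log2 fold changes of 1.51 and 1.28, and MMP1, MMP7 and MMP2 of 5.33, 3.54 and 2.22. MMP7 and DPP4 passed the filter on low values only through polymer X. The median over the 14 genes was 0.67.

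Of 29 regulators of inflammatory signaling, 28 were tested, 8 were called lower and 4 higher, with a median log2 fold change of 0.12. The shares over all genes tested were 9.45% lower and 10.7% higher. IL6, which encodes interleukin-6, was lower by 3.20 on the log2 scale. NFKBIZ, an NF-kappaB cofactor, was at 66.2 and 67.6 FPKM on TCP and at 15.6 and 15.5 on polymer X, which gave a log2 fold change of -2.03. FOSL1, a subunit of AP-1, was at 98.3 and 104.9 against 24.8 and 25.0 (-1.99), and IRAK1, a kinase downstream of interleukin-1 and Toll-like receptors, was at 88.9 and 90.1 against 24.4 and 24.8 (-1.82). In contrast, IL1A and IL1B, which encode the cytokines interleukin-1 alpha and beta, were higher on polymer X. IL1A was at 3.96 and 3.88 FPKM on TCP and at 18.6 and 18.7 on polymer X (log2 fold change 2.00), and IL1B at 3.94 and 4.04 against 18.0 and 18.2 (1.94). Of the 4 genes called higher, IL1RN, which encodes the interleukin-1 receptor antagonist, passed the filter on low values only through polymer X, with an FPKM of 0.030 and 0 on TCP and of 2.21 and 2.24 on polymer X. RELA, the main activating subunit of NF-kappaB, had a log2 fold change of 0.11 (95% confidence interval -0.01 to 0.23). The subunit NFKB1 was called lower, at 21.2 and 22.5 FPKM on TCP against 10.9 and 9.94 on polymer X. REL (log2 fold change -0.297), NFKB2 (0.134) and RELB (0.338) were not called. JUN, another subunit of AP-1, was called lower, at 257 and 256 FPKM against 115 and 124. Under quantile normalization, NFKB1 (-0.859) and JUN (-0.774) were no longer called, nor were KHSRP (-0.952) and IL1R1 (0.920) of the same list. NFKB1 lay at the threshold in the main fit (-1.003) and was also not called under scaling to a common median (-0.963). Its log2 fold change was -0.960 without TCP replicate 2 and -0.944 without polymer X replicate 2.

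**Figure D5:**
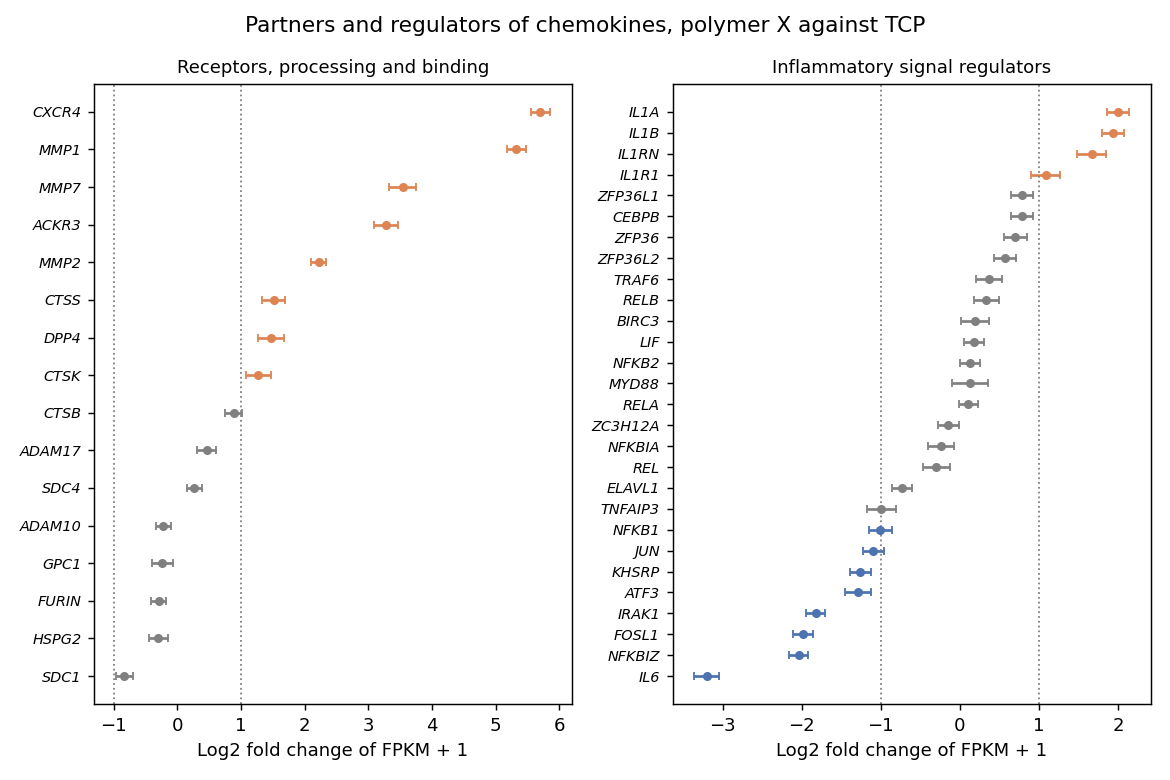
Log2 fold change of FPKM + 1, polymer X against TCP, for the tested chemokine receptors and processing or binding genes (left) and inflammatory signal regulators (right), with 95% confidence intervals from limma, dotted lines at -1 and 1, and genes not called in grey. CXCR4 and MMP1 lie highest on the left, and IL6 lies lowest and IL1A highest on the right.

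To place CXCL2 and CXCL16 among all genes, the genes with the most similar profile were taken by the distance between log2(FPKM + 1) values over the 4 libraries, each centred on its own mean. Nearest to CXCL2 were KPNA2, a nuclear import receptor, TUBA1B, an alpha-tubulin, and RRS1, a ribosome biogenesis factor, at distances of 0.04 each. KPNA2 was at 158 and 156 FPKM on TCP and at 28.9 and 27.3 on polymer X. Nearest to CXCL16 were RTL5, SULF2 and PILRB, at distances of 0.02, 0.02 and 0.03. RTL5 was at 0.427 and 0.488 FPKM on TCP and at 2.35 and 2.14 on polymer X. It passed the filter on low values only through polymer X, and at such levels the 1 added to each value shrinks the fold. SULF2, which removes sulfate groups from heparan sulfate outside the cell, was at 20.4 and 21.2 FPKM on TCP and at 49.3 and 46.5 on polymer X. With 2 conditions, such likeness is mostly that of the change between them.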

How the data were processed

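RNA-seq libraries of SKOV3 cells were grouped by their labels into TCP (2 libraries) and polymer X (2 libraries). The authors deposited FPKM values for 50078 RefSeq transcripts of hg19, made with HOMER from tags on exons of both strands per the file headers. The submitters' processing notes also list STAR 2.4.0. The HOMER version is not given in the sources used here. The deposited table gives no counts. Products of value and transcript length were whole multiples of 1 step per library to within 0.1 (100.0% of low values), which gave library totals and tag numbers. Intervals from tags and the floor of 3 tags cover counting error only.

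Each symbol was represented by its transcript of highest mean. The genes reaching an FPKM of 1 in 2 or more libraries entered limma 3.58.1 on the log2(FPKM + 1) scale (R 4.3.3, mean-variance trend, Benjamini-Hochberg adjustment over all 11964 genes). The procedure was also run on simulated data with 1 spread setting for all genes, which does not test how these libraries vary. Tag ratios have exact conditional binomial intervals (scipy 1.17.1). Sequences came from RefSeq and GENCODE, aligned with Biopython 1.88. CX3CL1 had no matched transcript there and was left out of that step. Plots used matplotlib 3.10.9. The members and lists were chosen with earlier results of these data known. Named were all 10 members, up to 6 called genes of each list by absolute log2 fold change, receptors of members (1 is not reported here), overlapping genes and the 3 genes nearest in profile to the members with the largest fall and rise. ADAM10, ADAM17, RELA, the tested or neighbouring ligands and other genes named were chosen after their values were seen. As alternatives, the pseudocount was set to 0.1, the filter was dropped or raised to a mean of 5, and values were scaled by quantiles or medians. Further fits used the replicate number as a block, summed transcripts, no variance trend, other fold change minimums, or 1 library fewer.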

Additional observations from a re-analysis of the deposited data

How the results depend on the processing

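The 5 falls and the 1 rise among the chemokine genes were called under the pseudocount of 0.1, no filter, quantile normalization, scaling to a common median, summed transcripts, no variance trend and no fold change minimum. They were also called with each library left out in turn (5 lower and 1 higher in each), where limma assumes that the lone library varies like the other group. The log2 fold change lay between -2.17 and -1.95 for CXCL1, -2.52 and -2.45 for CXCL2, -1.57 and -1.22 for CXCL3, -2.52 and -2.19 for CXCL8, -1.76 and -1.73 for CCL20, and 1.10 and 1.22 for CXCL16 with a library left out. With the filter at a mean FPKM of 5, CXCL16 and CCL20 were not among the genes tested, and 0 members were called higher and 4 lower. With a log2 minimum of 2, the call was kept by 3 members, CXCL1, CXCL2 and CXCL8, and 0 were called higher.

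Over all genes, 1285 were called higher and 1131 lower. The counts were 4477 and 5212 without a fold change minimum, 281 and 150 at a minimum of 2, and 702 higher with the filter at a mean FPKM of 5. Of the other chemokine ligands, 1 was called, against 2 with a pseudocount of 0.1, 3 without a fold change minimum and 0 at a minimum of 2. Of the processing and binding genes, 6 were called, against 3 with that filter, 14 without a minimum and 3 at a minimum of 2. Of the inflammatory regulators, 12 were called, against 26 and 2 under the latter settings. A stricter or absent minimum and the higher filter change which folds and genes are admitted. The cause of the change with the pseudocount was not tested. With the replicate number as a block, 5 members were lower and 1 higher, and no count among these lists or over all genes changed. The deviations of libraries with the same number correlated at 0.093 over 11964 genes, and no pairing was assumed. Depth limits CXCL5, CCL2, CCL5 and CX3CL1, which had at most 20 tags in a library.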
